A study of Mus musculus with 20 samples.

Results

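Myelin is the membrane sheath that oligodendrocytes, the myelin-forming glia of the brain, wrap around axons. Its inner faces are held together by Mbp (myelin basic protein) and Mobp (myelin-associated oligodendrocyte basic protein), its outermost and innermost surfaces carry Mog and Mag, and the transcription factor Olig1 belongs to the program that makes the cells. Microglia, the resident macrophages of the brain, take up myelin and its debris, and the RNA of a purified microglial fraction can also hold RNA of the cells around them. The 9 genes described here, Mbp, Mog, Mag, Mobp, Cnp, Mal, Cldn11, Ermn and Olig1, were chosen by name as markers of oligodendrocytes and their myelin, and all 9 are among the 24062 genes measured.

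RNA was sequenced from the microglial fraction of the whole brain of 20 male mice, 1 mouse per sample. At 7 months 6 mThy1-α-synuclein mice and 4 of the wild type were sequenced, and at 10 months 5 of each. The mThy1-α-synuclein mice carry human wild-type α-synuclein under the murine Thy-1 promoter, which drives expression in neurons, with the transgene on the X chromosome. They are labelled mThy1-Asyn and are called transgenic mice below. Their controls were wild-type littermates of the same B6D2F1/J background, and the comparison asks how the RNA of this fraction differs when neurons overproduce α-synuclein. During isolation the brains were cleared of myelin debris and red blood cells with removal solutions, and the cells were then taken with magnetic beads, against CD11b by the study's methods and against IBA1 by the sample labels.

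Between 33404096 and 77806399 reads per mouse were counted on genes. Values are normalized counts, that is, reads divided by a size factor for each mouse that was computed within an age, so levels are compared between genotypes of the same age and not between ages. Genotypes were compared with limma's moderated test on log2(normalized count + 1) for genes that reached 10 normalized counts in at least 4 mice at 7 months or 5 mice at 10 months. A log2 fold change is transgenic minus wild-type on that scale, which understates the change of low genes, and it is given with its standard error (SE). A gene is called a DEG (differentially expressed gene) when its p, adjusted by the Benjamini-Hochberg method over all genes tested, is under 0.05. Thy1, whose regulatory sequence drives the transgene, lay between 392 and 1298 normalized counts in transgenic mice and between 17.7 and 47.6 in wild-type mice at 7 months, and between 1117 and 1741 against 9.41 and 32.4 at 10 months, so all 20 mice followed their labels.

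The oligodendrocyte genes took a small share of the RNA of the fraction. The 9 oligodendrocyte genes together had between 6657 and 12838 normalized counts in the 20 mice. Of the reads counted on genes, these 9 took, per 1e+06 reads, a mean of 144 in transgenic and 183 in wild-type animals at 7 months, and 171 and 190 at 10 months. Most of this came from Mbp, Cnp and Mag (45.6%, 38.8% and 11.0% of the sum in wild-type mice at 7 months). Which cells held these transcripts was not tested. The defining regulators of the lineage were low. Sox10, the factor that switches on myelin genes, had a mean of 4.43 ± 3.73 (SD, n = 6) and 9.46 ± 8.81 (n = 4) normalized counts in transgenic and wild-type animals at 7 months, and 8.42 ± 5.07 and 2.73 ± 2.16 (n = 5 each) at 10 months. Olig2, the partner of Olig1, had group means between 3.59 and 8.50. In bulk RNA, fewer cells of a type and less RNA per cell cannot be told apart.

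The start sites of 3 of these genes are shown because they stand for the 3 ways in which the genes behaved below. Mobp was lower in transgenic mice at 7 months and varied widely between mice, Mal separated the genotypes at 7 months without passing the test, and Cnp was abundant and steady. The sequences are from RefSeq (GRCm38.p6), run 5′ to 3′ along the gene and cover 250 bases before to 50 bases after the start site. Entries were found for 7 of the 9 genes, all but Mbp and Olig1. Capitals mark ACAAAG or its reverse complement, the core of the motif bound by SOX proteins such as SOX10. The window of Mobp is chr9:120149492-120149791 (plus strand), that of Cnp is chr11:100574689-100574988 (plus strand) and that of Mal is chr2:127656646-127656945 (minus strand).
Mobp: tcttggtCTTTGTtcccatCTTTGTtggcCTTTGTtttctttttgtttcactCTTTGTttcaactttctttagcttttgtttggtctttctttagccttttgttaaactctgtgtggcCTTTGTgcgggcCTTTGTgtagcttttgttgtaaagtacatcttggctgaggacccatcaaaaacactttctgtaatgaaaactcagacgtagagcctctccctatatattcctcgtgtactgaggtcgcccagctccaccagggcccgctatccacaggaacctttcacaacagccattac
Cnp: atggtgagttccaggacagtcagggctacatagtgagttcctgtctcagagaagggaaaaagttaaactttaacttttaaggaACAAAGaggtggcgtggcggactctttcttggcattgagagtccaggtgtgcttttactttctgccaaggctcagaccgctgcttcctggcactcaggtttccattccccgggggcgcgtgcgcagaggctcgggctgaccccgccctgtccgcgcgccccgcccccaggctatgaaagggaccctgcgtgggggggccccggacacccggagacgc
Mal: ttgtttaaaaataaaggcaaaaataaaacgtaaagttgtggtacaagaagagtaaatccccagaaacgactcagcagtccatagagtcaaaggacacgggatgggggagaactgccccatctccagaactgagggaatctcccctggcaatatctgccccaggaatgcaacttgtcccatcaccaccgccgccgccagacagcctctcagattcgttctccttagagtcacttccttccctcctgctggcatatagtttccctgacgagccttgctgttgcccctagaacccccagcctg
The Mobp window held 6 matches, all on the minus strand, at positions from -243 to -120 relative to the start site. The Cnp window held 1 match on the plus strand at position -167, and the Mal window held none. Of the other windows searched, those of Mag held a match at 2 of its 3 annotated start sites. ACAAAG was searched on both strands, and 18.7% of the 32851 mouse promoter windows of this length hold it at least once. The Mobp window was the only 1 of these 32851 with at least 6 matches (0.00304%), a count that was looked at after the Mobp values were known. Also searched on both strands were the E-box CAGCTG (in 16.3% of windows), the interferon-stimulated response element (3.44%) and the TATA box TATAAA (13.6%), and no window of the 7 genes held any of these. A match is only a run of letters, and binding was not measured.

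The members differed widely in abundance. Per kilobase of exon, in wild-type mice at 7 months, Cnp had the highest level (1016 ± 112 normalized counts per kb, n = 4), followed by Mbp (513 ± 44.7), Mag (258 ± 52.1) and Mal (66.5 ± 13.8), each apart from the next by more than their SDs. Below them Cldn11 (30.4 ± 15.5), Ermn (15.1 ± 3.29), Mog (15.1 ± 4.76), Mobp (14.5 ± 5.02) and Olig1 (13.4 ± 5.52) could not be put in an order, since the SD ranges of each neighbouring pair met. In transgenic mice of that age the same 4 genes led (Cnp 891 ± 78.2, Mbp 367 ± 63.1, Mag 224 ± 32.6 and Mal 37.0 ± 11.4 per kb, n = 6), but the SD ranges of Mal and Cldn11 (15.9 ± 11.9) met. Mobp had the lowest mean (4.82 ± 2.36), and from Mal downward the SD ranges of all neighbouring pairs met. At 10 months Cnp, Mbp, Mag and Mal led again in both genotypes, with Cnp at 806 ± 45.7 and 800 ± 68.6 per kb in transgenic and wild-type mice, and in wild-type mice the SD ranges of Cnp and Mbp (563 ± 238) met. Exon lengths are those of all annotated transcripts of a gene joined together. The Mbp locus also makes golli transcripts, which are found in immune cells, and counts per gene do not separate them from the myelin forms.

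At 7 months, Mobp and Mbp were lower in transgenic mice, and the estimates of all 9 genes lay below 0. The log2 fold changes ran from -1.64 (Mobp) to -0.19 (Cnp), with a median of -0.89, against a median of 0.00093 over all 13887 genes tested. By limma, 2 of the 9 were called lower, where 2.7% of all genes tested were called lower and 4.93% were called in either direction. An estimate below 0 was found for 49.8% of all genes, and an unadjusted p under 0.05 for 7 of the 9 and for 21.3% of all genes. In 3 of the 9 (Mobp, Mal and Ermn) every transgenic mouse lay below every wild-type mouse, as in 3.97% of all genes.

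Mobp, on chromosome 9 from 120149707 to 120181484 of mm10 (plus strand), encodes a small basic protein of compact myelin. In the 4 wild-type mice it had 149, 94.6, 80.3 and 73.4 normalized counts, and in the 6 transgenic mice between 15.8 and 57.2 with a median of 28.6. The groups did not overlap, and wild-type replicate 1 was the highest. Of its exon bases, 79 are shared with a noncoding transcript of the same strand. Mobp was 0.32-fold in transgenic mice (95% confidence interval 0.18 to 0.56, log2 fold change -1.64, SE 0.38, adjusted p = 0.0215 by limma). The call was lost without wild-type replicate 1 (log2 fold change -1.43, adjusted p = 0.104) and without wild-type replicate 2 (-1.65, adjusted p = 0.0566).

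Mbp, on chromosome 18 from 82475146 to 82585637 (plus strand), encodes the protein that presses the cytoplasmic faces of the sheath together. It had 4876, 4025, 4132 and 4345 normalized counts in the wild-type mice and between 2725 and 4091, with a median of 2884, in the transgenic mice. The groups overlapped by a single pair, since transgenic replicate 4 (4091) lay above wild-type replicate 2 (4025). Mbp was 0.71-fold in transgenic mice (95% confidence interval 0.60 to 0.83, log2 fold change -0.49, SE 0.11, adjusted p = 0.0163 by limma). Without wild-type replicate 1 the adjusted p was 0.0816, with a log2 fold change of -0.44.

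**Figure D1:**
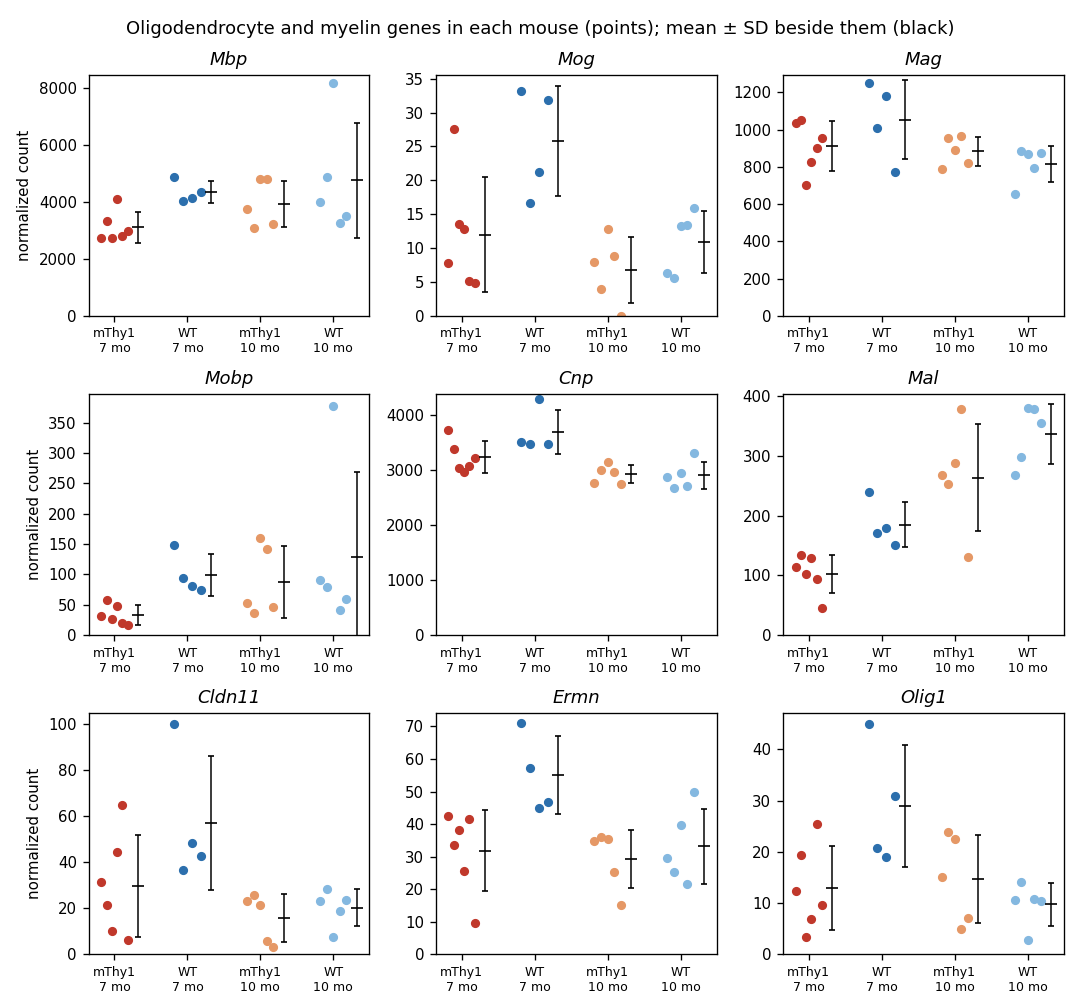
Normalized counts of each of the 9 genes (vertical axes from 0, a scale for each gene) in every mouse, by genotype and age (mThy1, mThy1-α-synuclein; WT, wild-type), with the mean ± SD beside the points, the bar of Mobp in 10-month wild-type mice being cut at 0. At 7 months Mobp, Mal and Ermn do not overlap between the genotypes, and at 10 months 1 wild-type mouse stands out in Mbp (8191) and Mobp (378).

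The 3 genes of membrane traffic, junctions and sheath cytoskeleton had larger estimates than Mbp but did not pass the test. Mal, a proteolipid of sorting vesicles and myelin membrane (chromosome 2 from 127633226 to 127656695, minus strand), had 239, 171, 180 and 150 normalized counts in wild-type mice and between 46.0 and 134, with a median of 108, in transgenic mice. These values did not overlap (log2 fold change -0.89, SE 0.28, adjusted p = 0.0784 by limma), and DESeq2 on the recovered reads called the gene (adjusted p = 0.0309). Ermn, which encodes ermin, a cytoskeletal protein of late oligodendrocytes (chromosome 2 from 58045113 to 58052864, minus strand), had 71.0, 57.2, 44.9 and 46.8 in wild-type mice and between 9.69 and 42.6, with a median of 35.9, in transgenic mice. Its groups did not overlap either, yet its adjusted p was 0.227 (log2 fold change -0.88, SE 0.41). Ermn shares 237 exon bases near its 3′ end with Galnt5 on the opposite strand, and whether reads were counted by strand is not given in the sources used here. Cldn11, the claudin that seals the tight junctions between myelin layers (chromosome 3 from 31149920 to 31164324, plus strand), had 99.8, 36.4, 48.4 and 42.6 in wild-type mice and between 6.06 and 65.0, with a median of 26.4, in transgenic mice. Those ranges overlapped (log2 fold change -1.18, SE 0.57, adjusted p = 0.248).

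The surface proteins Mag and Mog behaved differently in level and spread. Mag, an adhesion protein of the sheath's inner surface that faces the axon (chromosome 7 from 30899176 to 30914873, minus strand), had 1248, 1010, 1179 and 772 normalized counts in wild-type mice and between 703 and 1051, with a median of 927, in transgenic mice. The wild-type mouse with 772 lay below 5 of the 6 transgenic mice (log2 fold change -0.20, SE 0.14, adjusted p = 0.452, 95% confidence interval of the fold 0.71 to 1.08). Mog, exposed on the outermost surface (chromosome 17 from 37010743 to 37023398, minus strand), had 33.3, 16.6, 21.3 and 31.9 in wild-type mice and between 4.85 and 27.6, with a median of 10.3, in transgenic mice. A single transgenic mouse, replicate 2, lay inside the wild-type range (log2 fold change -1.23, SE 0.54, adjusted p = 0.205).

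Cnp was among the most and Olig1 among the least abundant of the 9. Cnp, a phosphodiesterase of the non-compacted cytoplasm of myelin (chromosome 11 from 100574904 to 100591729, plus strand), had 3513, 3481, 4308 and 3484 normalized counts in wild-type mice and between 2973 and 3733, with a median of 3153, in transgenic mice. Only transgenic replicate 1 exceeded any wild-type mouse, and the fold was 0.88 (95% confidence interval 0.77 to 0.996, log2 fold change -0.19, SE 0.086, adjusted p = 0.220). Cnp shares 154 exon bases with Dnajc7 on the opposite strand. Olig1, the transcription factor of the lineage (chromosome 16 from 91269772 to 91271933, plus strand), had 44.9, 20.8, 18.9 and 30.9 in wild-type mice and between 3.41 and 25.4, with a median of 11.0, in transgenic mice. The transgenic mice with 19.4 and 25.4 overlapped the wild-type range (log2 fold change -1.26, SE 0.55, adjusted p = 0.200), and 157 exon bases lie under a long noncoding RNA of the opposite strand.

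At 10 months no member was called. Of the 9 genes 8 could be tested, 5 with an estimate below 0 and 3 above, and the median log2 fold change was -0.20 against -0.0026 over all 13627 genes, of which 50.5% lay below 0. None of the 8 had an unadjusted p under 0.05, where 23.5% of all genes did. On the recovered reads edgeR and DESeq2 also called 0. Among all genes tested 7.67% were called and 3.79% were called lower. No member had every transgenic mouse below every wild-type mouse, as 3.49% of all genes did.

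Mobp had 53.4, 35.9, 161, 142 and 46.2 normalized counts in the transgenic mice and 90.0, 78.8, 378, 41.7 and 58.8 in the wild-type mice at 10 months. Both groups spanned a wide range, and the wild-type mouse with 378 (replicate 3) lay far above the rest (log2 fold change -0.34, SE 0.61, adjusted p = 0.790 by limma). Without that mouse the estimate turned to 0.17 (adjusted p = 0.872). Mbp had 3749, 3091, 4793, 4792 and 3239 in the transgenic mice and 3989, 4893, 8191, 3259 and 3498 in the wild-type mice. The same wild-type mouse was the highest here too, and without it the estimate went from -0.22 (SE 0.25, adjusted p = 0.662) to 0.00099 (adjusted p = 0.998).

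Mal had the estimate nearest to the threshold at this age. Its values were 268, 253, 288, 379 and 130 normalized counts in transgenic mice and 268, 298, 380, 379 and 355 in wild-type mice, so that 4 of the 5 wild-type mice lay above 4 of the 5 transgenic mice (log2 fold change -0.41, SE 0.23, unadjusted p = 0.0914, adjusted p = 0.297 by limma). Cnp was the steadiest, with 2777, 3009, 3148, 2976 and 2753 against 2886, 2686, 2955, 2714 and 3308. Its fold of 1.01 had a 95% confidence interval of 0.91 to 1.12 (adjusted p = 0.933). Mag lay between 790 and 963 in transgenic mice and between 657 and 886 in wild-type animals (log2 fold change 0.12, SE 0.10, adjusted p = 0.524).

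The low genes differed little between the genotypes at 10 months relative to their spread. Cldn11 had 23.1, 25.5, 21.4, 5.85 and 3.01 normalized counts in transgenic mice and 23.3, 28.1, 7.54, 18.8 and 23.5 in wild-type animals (log2 fold change -0.58, SE 0.59, adjusted p = 0.599). Ermn lay between 15.1 and 35.9 and between 21.5 and 49.8 (log2 fold change -0.18, SE 0.35, adjusted p = 0.809), and Olig1 between 4.87 and 23.9 and between 2.83 and 14.1 (log2 fold change 0.46, SE 0.57, adjusted p = 0.672). Mog was not tested, because it reached 10 normalized counts in fewer than 5 mice. Its values were 8.01, 3.99, 12.8, 8.77 and 0 in transgenic mice and 6.35, 5.63, 13.2, 13.4 and 15.9 in wild-type mice. The mouse without a Mog read had 48047588 reads counted on genes, and a count of 0 allows up to 3 reads there, or 3.01 normalized counts, by counting error alone.

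**Figure D2:**
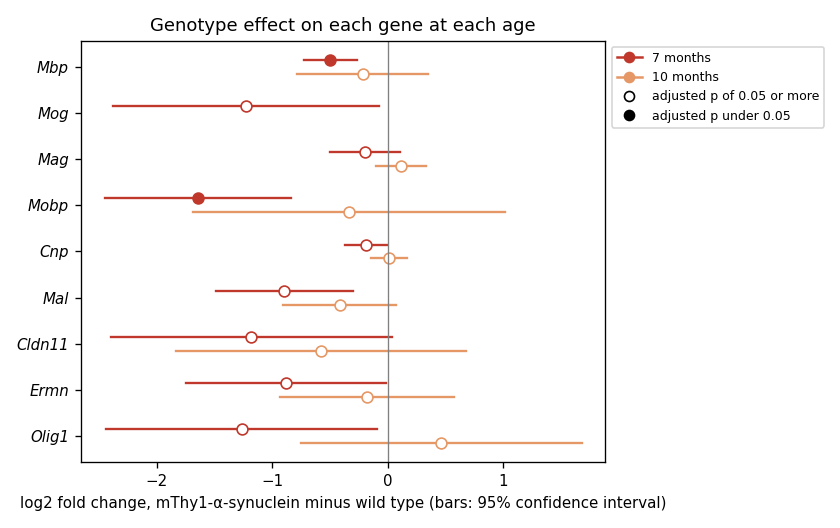
Log2 fold change of each gene (mThy1-α-synuclein minus wild-type, horizontal axis) with its 95% confidence interval at 7 months (red) and 10 months (orange), filled where the adjusted p was under 0.05. At 7 months all 9 points lie left of 0 and Mobp and Mbp are filled, and at 10 months all 8 intervals include 0.

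The difference between the ages was tested in 1 fit of all 20 mice, by subtracting the 7-month genotype effect from the 10-month effect. By the study's methods, the 2 genotypes of an age were processed together. A difference between the ages therefore cannot be told apart from one between processing rounds. All 9 estimates lay above 0, as did 49.6% of the 14030 genes tested, with a median of 0.48 against -0.0032 over all genes. By limma 0 of the 9 were called, 1 had an unadjusted p under 0.05, and edgeR and DESeq2 also called 0, while 6.6% of all genes were called. An unadjusted p under 0.05 was found for 22.2% of all genes. Olig1 had the largest estimate (1.73, SE 0.78, unadjusted p = 0.0372, adjusted p = 0.192), followed by Mobp (1.31, SE 0.73, adjusted p = 0.306). The 95% confidence interval of the Mobp difference ran from -0.21 to 2.82 and that of Mbp (estimate 0.28) from -0.33 to 0.89. A change of the effect between the ages was therefore not shown for any of the 9, although Mobp and Mbp passed the cutoff at 7 months and not at 10 months. The sum of the 9 genes was 7483 ± 603 normalized counts in transgenic mice (n = 6) and 9544 ± 701 in wild-type mice (n = 4) at 7 months. The highest transgenic mouse (8154) lay below the lowest wild-type mouse (8913). Without Mbp the sums overlapped, since the transgenic mice with 5008 and 4741 lay above the wild-type mouse with 4631. At 10 months the sums were 8167 ± 1095 and 9032 ± 2209 (n = 5 each), and these ranges overlapped. Mbp and Cnp made up most of the sum. In wild-type mice at 7 months Mbp took 45.6% ± 3.17 and Cnp 38.8% ± 3.61 of it, and in transgenic mice 41.4% ± 4.85 and 43.5% ± 4.00. The share of Mobp was 1.03% ± 0.303 and 0.432% ± 0.183 in those groups.

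The mice that were high or low in one gene were often so in others. At 7 months, wild-type replicate 1 was the highest of its group in 8 of the 9 genes, all but Cnp, and transgenic replicate 6 was the lowest in 5 (Mog, Mobp, Mal, Cldn11 and Ermn). At 10 months, transgenic replicate 5 was the lowest in 5 (Mog, Cnp, Mal, Cldn11 and Ermn), and wild-type replicate 3 was the highest in Mbp, Mobp and Mal and the lowest in Cldn11 and Olig1. Pearson's r between genes, over the deviations of the 20 mice from their own group means on the log2 scale, describes this. Mbp and Mobp were the closest pair (r = 0.90), followed by Mog with Mal (0.78) and Cldn11 with Olig1 (0.73). Mag and Cnp had 0.51. Cnp was close to none of Mobp (0.15), Mbp (-0.05) or Cldn11 (0.05), and Mbp and Olig1 had -0.32. The points of each pair share the library, its depth and its size factor.

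Among all 13484 genes tested at both ages, the gene closest to Mobp was Bcas1, an early myelinating oligodendrocyte gene (r = 0.90), with Mbp next (0.90) and Plekhb1 after it (0.86), while Cnp had rank 3597. Bcas1 and Plekhb1 were chosen after these values were seen. In the 5 wild-type mice at 10 months Bcas1 had 94.2, 149, 600, 126 and 110 normalized counts. The mouse with 600 was replicate 3, the mouse that was also highest in Mobp and Mbp. At 7 months Bcas1 had 178, 98.8, 85.0 and 72.4 in wild-type mice and between 30.3 and 101, with a median of 68.1, in transgenic mice (log2 fold change -0.77, SE 0.35, adjusted p = 0.215 by limma).

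**Figure D3:**
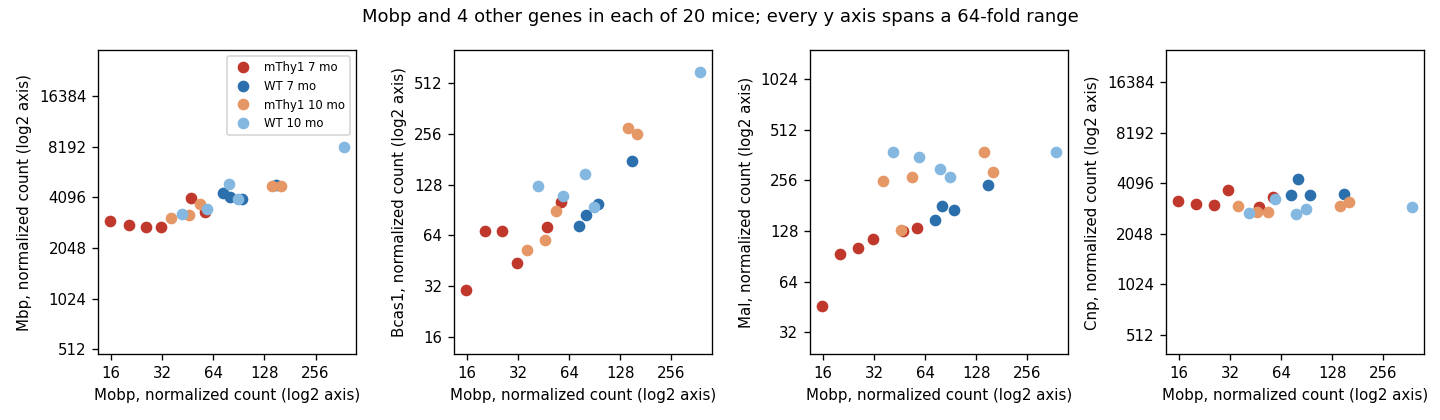
Normalized counts of Mobp (horizontal, log2 axis) against those of Mbp, Bcas1, Mal and Cnp (vertical, log2 axes that span the same fold range) in the 20 mice, colored by genotype and age. The 10-month wild-type mouse with the most Mobp (378) also has the most Mbp (8191) and Bcas1 (600), whereas Cnp stays between 2686 and 4308 over the whole range of Mobp.

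The genes outside the lists whose deviations were most like the mean of the 8 oligodendrocyte genes tested at both ages, over the 20 mice, were Srcin1 (r = 0.88), Hcn3 (0.80), Cytl1 (0.80), Arhgef15 (0.79), Pard3 (0.75), Dnm3os (0.74), Zfp462 (0.73) and Zfhx4 (0.73). All 8 were low, with means between 14.3 and 51.1 normalized counts over all mice. Of the members, which are part of that mean, Cldn11 (0.79), Mal (0.76) and Ermn (0.76) were closest to it, and Cnp had 0.26. Srcin1, which encodes a signaling adaptor abundant in neurons, had a mean of 30.7 ± 14.1 in transgenic and 80.4 ± 30.1 in wild-type animals at 7 months (log2 fold change -1.47, SE 0.46, adjusted p = 0.0767). None of the 8 was called at either age or in the interaction by limma, and of their tests within an age and of the interaction 3 had an unadjusted p under 0.05, the smallest being 0.00538, that of Srcin1 at 7 months. On the recovered reads edgeR also called 0, and DESeq2 called 1, Srcin1 at 7 months (adjusted p = 0.0227).

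Other genes of the sheath were counted from a list of 20 structural and junction genes, of which 16 were tested at each age. At 7 months 14 of the 16 had an estimate below 0, 1 was called lower (Cntn2) and 0 higher, with a median of -0.74. An unadjusted p under 0.05 was found for 7 by limma, and edgeR called 1 and DESeq2 called 2. Cntn2, an adhesion protein beside the node of Ranvier that neurons make too, had 71.0, 39.5, 40.2 and 34.1 against a range of 2.04 to 20.4 (log2 fold change -2.29, SE 0.57, adjusted p = 0.0314), a call that ended without any of the 4 wild-type mice or transgenic replicate 6, with an adjusted p between 0.0537 and 0.128.

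At 10 months 11 of the 16 had an estimate below 0, with a median of -0.13, and Gsn was called lower and Sirt2 higher. An unadjusted p under 0.05 was found for 5 by limma, and edgeR called 3 and DESeq2 called 4. Sirt2, a deacetylase found in myelin and in many other cells, had 6108, 7179, 6515, 6957 and 6484 normalized counts in transgenic mice and 4867, 5389, 5807, 5576 and 5931 in wild-type animals (log2 fold change 0.27, SE 0.070, adjusted p = 0.0325 by limma). These did not overlap, and at 7 months Sirt2 had an estimate of -0.20 (SE 0.073, adjusted p = 0.137). The interaction was 0.47 (SE 0.099, adjusted p = 0.00723), the only one called in this list, in which 13 of the 16 estimates were above 0. Gsn, the actin-severing protein gelsolin, had a mean of 1210 ± 180 in transgenic and 1800 ± 397 in wild-type mice at 10 months (log2 fold change -0.56, SE 0.15, adjusted p = 0.0450), with groups that overlapped. Both calls were fragile, since leaving out any of 6 mice ended that of Sirt2 (adjusted p between 0.0513 and 0.0737) and any of 9 mice that of Gsn (0.0551 to 0.0985).

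The lists of enzymes, regulators and precursors held few calls. Of 12 genes of myelin lipid and metabolism, 10 were tested at 7 months and 9 at 10 months, and limma called 0 at either age or in the interaction. An unadjusted p under 0.05 was found for 2 at each age and for 1 in the interaction. On the recovered reads edgeR called 0 in all 3 tests, and DESeq2 called 0 at 7 months and 1 each at 10 months and in the interaction. The medians were -0.44 and -0.03. Trf, the iron carrier transferrin, had the highest normalized counts of the list, not scaled by length, with a mean of 105509 ± 13733 normalized counts in transgenic and 106980 ± 10146 in wild-type mice at 7 months. The highest sum of the 9 oligodendrocyte genes at that age was 10275, and which cells held the Trf RNA was not tested. Enpp2, which encodes autotaxin, had 3429 ± 3389 and 2760 ± 1990 at that age. At 10 months Enpp2 had 6127 ± 4094 and 1942 ± 424 (log2 fold change 1.36, SE 0.54, unadjusted p = 0.0354, adjusted p = 0.174 by limma). Of 10 regulators of the lineage, 6 were tested at 7 months and St18 was the only one called. St18, a zinc finger factor, had between 3.36 and 24.6 normalized counts in transgenic mice and 62.0, 115, 80.3 and 92.6 in wild-type animals (log2 fold change -2.88, SE 0.47, adjusted p = 0.00312 by limma), and at 10 months it had an estimate of -1.89 (SE 0.63, adjusted p = 0.0799). Tcf7l2, an effector of Wnt signaling, had 1771 ± 225 and 1621 ± 62.1 at 7 months. At 10 months 0 of 5 regulators and 0 of 5 precursor genes tested were called by limma, with an unadjusted p under 0.05 for 2 and 1 of them. At that age edgeR called 0 of either list, and DESeq2 called 0 regulators and 1 precursor gene.

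Of the 10 markers of oligodendrocyte precursors, the dividing cells from which oligodendrocytes arise, 5 were tested at 7 months. Bcan, the matrix proteoglycan brevican that astrocytes also make, was the only one called, with 253, 65.5, 116 and 116 normalized counts in wild-type mice and between 2.72 and 49.3 in transgenic mice (log2 fold change -2.79, SE 0.60, adjusted p = 0.0159 by limma). That call ended without wild-type replicate 1 (adjusted p = 0.0738) or wild-type replicate 3 (0.0514). Vcan, the proteoglycan versican, had 401 ± 442 in transgenic and 310 ± 156 in wild-type mice at 7 months. At 10 months it had 363 ± 154 and 941 ± 582 (log2 fold change -1.29, SE 0.42, unadjusted p = 0.0120, adjusted p = 0.0967 by limma). Markers of Schwann cells, which make the myelin of peripheral nerves, were low. The sum of Prx, Pmp2 and Ncmap lay between 3.46 and 43.8 in the 20 mice, and Pmp2 was listed at 0 in all of them, while Prx, the only one of the 3 that was tested, had group means between 9.90 and 15.7.

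At 7 months the median log2 fold changes of the neuron, astrocyte and endothelial markers also lay below 0, while single astrocyte markers went both ways. Of 10 neuron markers 5 were called lower and 0 higher in transgenic mice by limma (median log2 fold change -1.48), and their sum lay between 326 and 641 normalized counts in transgenic mice and between 744 and 1426 in wild-type mice. Nefm, a neurofilament of axons, had 46.6 ± 19.0 and 244 ± 54.2 (log2 fold change -2.43, adjusted p = 0.000945), and Syt1, a synaptic vesicle protein, 36.8 ± 22.5 and 191 ± 55.1 (-2.55, adjusted p = 0.00372). The call of Rbfox3, a nuclear protein of neurons, ended without wild-type replicate 1 (adjusted p = 0.119) or wild-type replicate 2 (0.0619). Of 9 astrocyte markers 4 were called lower and 1, Slc1a3, higher (median -1.15), with 7 estimates below 0 and 2 above. Their sum lay between 9738 and 12489 in transgenic mice and between 9358 and 12099 in wild-type mice, so that the sums overlapped. The mean of this sum was higher in transgenic mice (11344 against 10397), but most of it came from markers other than the 4 called lower. Of those 4, Aldoc had a mean of 161 in transgenic and 377 in wild-type mice, S100b 73.9 and 250, and Sox9 46.5 and 148. Gja1, a gap junction protein of astrocytes, had 70.0 ± 37.8 and 224 ± 80.5 (log2 fold change -1.77, adjusted p = 0.0110), and its call ended without wild-type replicate 1 (adjusted p = 0.0584). Of 10 endothelial markers 2 were called lower, Cldn5 (-1.29, adjusted p = 0.0125) and Pecam1 (-0.55, adjusted p = 0.0238), with sums between 3562 and 5409 against 5768 and 6946. These calls ended for Cldn5 without wild-type replicate 1 (adjusted p = 0.0546) and for Pecam1 without any of 4 mice (0.0539 to 0.0778). Of the 10 endothelial markers 8 had an unadjusted p under 0.05 by limma, and edgeR called 2 and DESeq2 called 4. Whether the shared direction of these medians has a part in the lower oligodendrocyte genes was not tested.

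The microglia markers did not follow this direction. At 7 months 0 of 9 were called by limma, 2 had an unadjusted p under 0.05, edgeR called 0 and DESeq2 called 1. Their median was 0.074, with sums between 1369750 and 1543260 normalized counts in transgenic mice and between 1303360 and 1452320 in wild-type mice. At 10 months 4 of 9 were called higher in transgenic mice (Cx3cr1, Itgam, Sall1 and Siglech) with log2 fold changes from 0.21 to 0.31 and adjusted p between 0.0266 and 0.0473, and each of these calls ended when any of at least 7 mice was left out (adjusted p up to 0.116). DESeq2 called 4 of the 9 and edgeR 3, with an adjusted p of 0.0530 for Cx3cr1, whose call also ended without the filter on low values (0.0516). The sums of the 9 at this age lay between 1249120 and 1408220 in transgenic mice and between 1128390 and 1244490 in wild-type mice. These sums did not overlap. At 10 months the neuron markers had 0 of 8 called by limma, edgeR and DESeq2, 1 with an unadjusted p under 0.05 (median 0.063), and summed to between 395 and 711 in transgenic and between 328 and 737 in wild-type mice. The astrocyte markers had 1 of 9 called, Aldh1l1, higher (median 0.57), by limma. Of these 9, 4 had an unadjusted p under 0.05, edgeR called 0 and DESeq2 called 2. Their sums lay between 10331 and 11406 and between 9248 and 11050. The endothelial markers had 0 of 10 called by limma, edgeR and DESeq2 and 0 with an unadjusted p under 0.05 (median -0.30). Of the red blood cell genes, Hba-a1, Hba-a2, Hbb-bs and Hbb-bt were listed at 0 in all 20 mice and Alas2 had a mean between 11.1 and 34.1 in the groups.

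**Figure D4:**
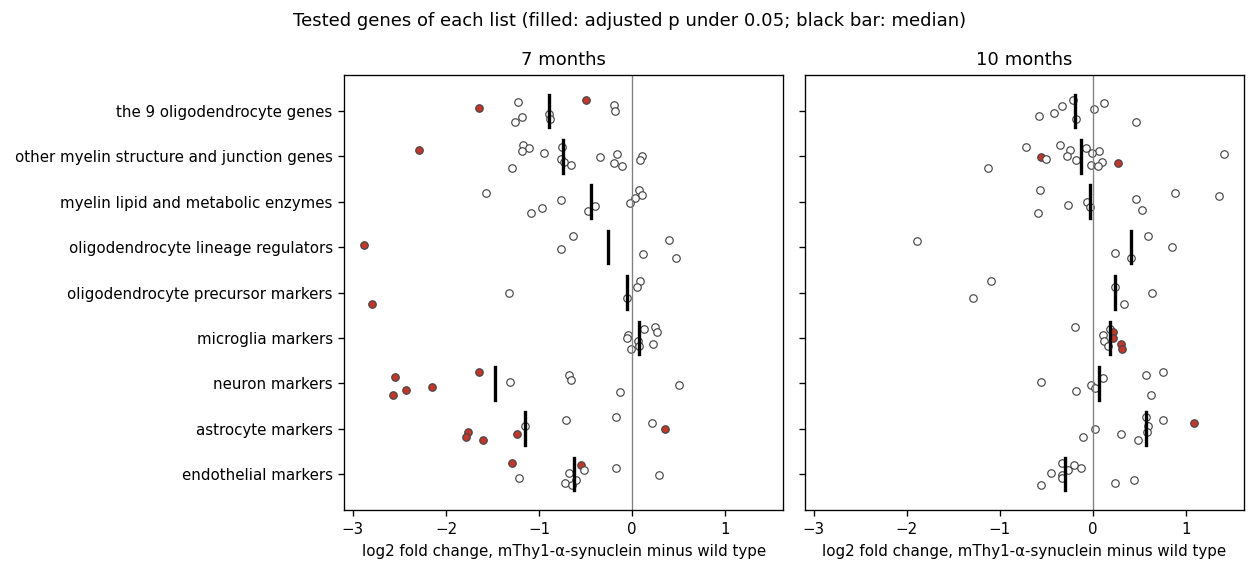
Log2 fold change (mThy1-α-synuclein minus wild-type, horizontal axis) of every tested gene of the 9 oligodendrocyte genes and of 8 other lists at 7 and 10 months, filled where the adjusted p was under 0.05, with the list's median as a black bar. At 7 months the medians of the oligodendrocyte genes (-0.89), neuron markers (-1.48) and astrocyte markers (-1.15) lie left of 0 and that of the microglia markers (0.074) near it, and at 10 months the medians drawn lie between -0.30 and 0.57.

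The 9 genes lie on 8 chromosomes, with Mal and Ermn both on chromosome 2. Of the other genes tested within 2 Mb of their starts, 0 of 8 around Mbp and 3 of 41 around Mobp were called at 7 months. At 10 months these counts were 0 of 8 and 6 of 41. The surroundings of Cldn11 held 2 called genes of 18 at 7 months, Gnb4 and Gpr160, and 3 of 18 at 10 months. Over the 9 genes the share called nearby ran from 0% to 11.1% at 7 months and from 0% to 16.7% at 10 months. Of all genes tested 4.93% and 7.67% were called at these ages. Gnb4, a G protein subunit 1.43 Mb away that was looked at after its values were seen, was lower at 7 months (log2 fold change -4.58, SE 0.57, adjusted p = 0.00248 by limma) and at 10 months (-4.78, SE 0.26, adjusted p = 9.72e-08), while Cldn11 itself was not called at either age.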

How the data were processed

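Microglial RNA of 20 male mice was analysed, and methylation and behavior data were not used here. Trimming by the authors used Trim Galore 0.6.7, mapping used HISAT2 2.2.1 on mm10, and featureCounts gave the reads per gene. The deposited signal values are these counts after the authors scaled each mouse by its DESeq2 size factor. The methods name DESeq2, and the values were whole multiples of 1 step per mouse that equalled size factors recomputed within an age, so whole reads were recovered (100% of values whole within 0.01 of a read). In replicate 5 of the 10-month mThy1-α-synuclein (transgenic) mice this step lay too near 1 for an independent check. The annotation release, strand setting and handling of multi-mapping reads are not given in the sources used here.

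The genes, gene lists, comparisons and rule for naming genes were chosen with earlier results of these data known. limma (trend and robust estimation) was run on log2(value + 1) over all genes that reached 10 in no fewer than 4 mice at 7 months or 5 at 10 months (either for the interaction), with Benjamini-Hochberg adjustment and a cutoff of 0.05. All members were named. From the other lists 4 genes are not reported here and were left out of their counts, medians and sums. From each other list up to 4 called genes were named, filled up to 2 with the most abundant, and 8 genes outside the lists by their likeness to the mean of the members. Alternatives were other pseudocounts (0.5 and 5), no filter, edgeR and DESeq2 on recovered reads, scaling to total reads, a replicate block and leaving out each mouse. Errors are SDs between mice, which include counting error, and intervals are of the limma fit. The fits were also run on simulated data with the same biological spread for every gene, a setting that does not cover members as variable as Mobp. Gene positions are from the GENCODE annotation of mm10 (GRCm38). Statistics used limma 3.58.1, DESeq2 1.42.0 and edgeR 4.0.16 in R 4.3.3, and tables and plots used pandas 2.3.3, numpy 2.4.6 and matplotlib 3.10.9 in Python 3.11.15.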

Additional observations from a re-analysis of the deposited data

Results flagged for a closer look

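A mouse stood apart from the rest of its group in 2 of 40 combinations of a value and a group (the 9 genes and their sum in 4 groups), where chance flags about 1 in 20 by Dixon's criterion (the gap to the nearest mouse over the range of the group). Mobp in wild-type replicate 3 at 10 months was the highest, with a gap of 0.856 of the range, and Cnp in wild-type replicate 3 at 7 months was the highest, with a gap of 0.961.

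The genotype effect differed between the ages by the interaction test (limma, adjusted p under 0.05, effect at 10 months minus that at 7 months on the log2 scale) for 11 of the other named genes and for 0 of the 9 oligodendrocyte genes, of which 1 had an unadjusted p under 0.05. In the sheath list it was Sirt2 (0.47, adjusted p = 0.00723) and among the precursor markers Bcan (3.12, adjusted p = 0.0184). Among the neuron markers it was Nefm (2.25), Nefl (2.17), Syt1 (2.65) and Rbfox3 (2.39), with adjusted p between 0.00353 and 0.00930. The astrocyte markers were Gja1 (2.35), S100b (1.68), Aldoc (1.53) and Sox9 (2.09), with adjusted p between 0.00437 and 0.0167. For Thy1, whose promoter drives the transgene, the difference was 1.86 (adjusted p = 0.0205, and 0.0507 without wild-type replicate 1 at 7 months). The astrocyte marker Slc1a2, not among the named genes, was also called by limma. Among all 14030 genes tested 6.6% were called and 22.2% had an unadjusted p under 0.05. Apart from Thy1, the 11 genes were named because they were called at 7 or 10 months, so their number cannot be set against the 0 of 9. Age cannot be told apart from processing round here.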

How the results depend on the processing

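Estimates of all 9 genes stayed below 0 at 7 months under every alternative (63 of 63 values) and every omitted mouse (90 of 90). The number of members called at 7 months was 2, from 0 to 2 with a mouse left out, 2 by edgeR and 3 by DESeq2, which added Mal. Whether equal replicate numbers mark mice that were handled together is not stated by the labels. The deviations of equally numbered mice correlated between -0.134 and 0.0995. This cannot exclude a pairing, since pairs with unequal numbers were not compared. At 7 months replicates 5 and 6 exist only among transgenic mice, so a replicate block takes these 2 mice out of the genotype comparison. With the replicate block 0 members were called at 7 months (adjusted p = 0.0779 for Mbp and 0.106 for Mobp), 414 genes were called at 7 months in place of 684 and 481 in the interaction in place of 926, and the Mog interaction turned from 0.27 to -0.18. Also lost with the block were the calls of Cntn2, Bcan, Rbfox3 and Cldn5 at 7 months, of Sall1 (adjusted p = 0.0671), Itgam (0.0943) and Cx3cr1 (0.106) at 10 months, and of Bcan, Nefl, Rbfox3 and Thy1 in the interaction. DESeq2 called 1166 genes at 7 months and 1698 at 10 months, where limma called 684 and 1045. Leaving out a mouse gave 282 to 858 genes at 7 months, 497 to 1235 at 10 months and 623 to 1089 in the interaction. The fewest genes at 7 months came without wild-type replicate 1. The 0 members called at 10 months and in the interaction stayed 0 with any mouse left out. Among estimates that were not called, leaving out a mouse moved Mbp at 10 months between -0.33 and 0.00099, Mobp between -0.62 and 0.17, Cnp between -0.014 and 0.061, Ermn between -0.31 and 0.035, and the Mog interaction between -0.053 and 0.89. The causes were not tested. The sum of the 9 genes without Mbp was 4374 and 5199 normalized counts in transgenic and wild-type animals at 7 months and 4234 and 4266 at 10 months. These 7-month values overlapped between the genotypes. The precision is limited by the 4 to 6 mice a group and, for genes with low counts, by counting error too, and these were not separated.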
